A study of Mus musculus with 12 samples.

Results

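OT-I cells primed with the N4 peptide in the presence of corticosteroid were set against OT-I cells primed with the Y3 peptide without corticosteroid. The comparison took 3 arrays on each side, 6 of the 12 arrays in the study, and the arrays were chosen by their labels and by no measured value. OT-I cells are CD8 T cells of a transgenic mouse line that carries a single T cell receptor for an ovalbumin peptide held on a class I molecule. The study primed OT-I splenocytes in RPMI1640 medium with foetal bovine serum, with N4, N4 plus corticosteroid, Y3 or Y3 plus corticosteroid, and took total RNA at day 4 from 3 samples of each of the 4 groups. All groups shared the OT-I receptor and the culture conditions. The labels gave the cells as splenocytes, with no strain, age, sorting step or steroid dose, and numbered the samples as biological replicates 1 to 3 without saying whether these came from separate mice or cultures. The p-values therefore rest on the spread between these samples alone, which may partly be technical.

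N4 is the ovalbumin peptide to which the OT-I receptor responds strongly, and Y3 is an altered version of it that acts as a weaker ligand. A stronger ligand holds the receptor in signalling for longer, and this raises the activation, growth and differentiation programs of a CD8 T cell to different extents. Corticosteroids enter the cell and bind the glucocorticoid receptor, which switches on genes such as Tsc22d3 and Fkbp5 and dampens inflammatory transcription. The question was whether cells given the strong ligand plus steroid had the RNA profile of cells given the weak ligand alone.

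Values are log2 of the deposited array signal, and each difference is N4 plus corticosteroid minus Y3 unless another pair is named. The signal of 39462 genes was tested, and between 14274 and 17515 genes per array lay above the brightest background control of that array, called the background line below. Over all genes, the array of N4 plus corticosteroid correlated with the Y3 array of the same number at Pearson's r = 0.995, 0.994 and 0.992, and with the N4 array of the same number at 0.997, 0.998 and 0.997. These coefficients describe pairs of arrays across genes, which are not independent replicates. The median of the negative controls differed between the groups by -0.03, 0.02 and -0.21 in the 3 pairs.

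The OT-I label was checked against T cell markers. All 12 T cell markers lay above the background line, and their summed signal was 18.47, 18.65 and 18.64 on the log2 scale with N4 plus corticosteroid and 18.68, 19.35 and 19.21 with Y3. The coreceptor chain Cd8b1 had signals of 16.02, 16.72 and 16.80 against 16.76, 17.81 and 17.61. Cd8b1, Cd3d and Cd247 fell (by 0.88, 0.67 and 0.47), against 1.06% of all genes called lower. The other 9 T cell markers did not pass the test. No T cell marker was called without Y3 replicate 3, and 1 without any 1 array of N4 plus corticosteroid or without Y3 replicate 2. Fewer cells of a type and less RNA per cell cannot be told apart in such bulk samples. Markers of other spleen cells were mostly dim: 10 of 14 B cell markers, among them Ms4a1 and Pax5, lay below the line in both groups, as did 11 of 14 markers of dendritic cells and macrophages, 9 of 10 of neutrophils and 8 of 8 of erythroid cells. The summed B cell signal was 11.38, 12.26 and 12.46 with N4 plus corticosteroid against 11.16, 11.32 and 11.42 with Y3. Within it H2-Ab1 differed by 0.94 ± 0.29, not past the threshold, whereas 12 of the 14 B cell markers lay lower and Cd79b fell by 0.65. The natural killer cell sum was 14.12, 17.23 and 9.96 against 11.78, 12.63 and 10.22, with 5 of 8 markers, Ncr1 and Tyrobp among them, below the line. On the treated arrays this sum was close to the signal of 1 member, Gzma, which is given below. Of the 8 markers 4 lay higher and 4 lower, with a median of 0.003, and Eomes fell. The sum of the 8 CD4 and regulatory T cell markers was 16.72, 16.39 and 16.41 against at most 16.24 with Y3, with Cd4 and Foxp3 below the line. Of these 8, Il2ra rose and 5 lay lower. The part of these markers in the results below was not tested.

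Cells given N4 plus corticosteroid differed from cells given Y3 in a set of genes that included interferon-induced genes, Ly6c2, Cxcr6 and Eomes on the lower side and Cish, Lif, Batf3, Ccr4 and Tnfrsf4 on the higher side. How many genes passed the test depended on the model. Without the replicate number as a block, limma called 3 genes, or 0.0076% of those tested, at an adjusted p of 0.0464 each: Lama5 (0.00253% of genes) was higher, and Ly6c2 and Tle4 (0.00507%) were lower. An unadjusted p under 0.05 was reached by 2525 genes in that model. With the replicate number as a block, 623 genes passed, or 1.58%, of which 204 (0.517%) were higher and 419 (1.06%) were lower. Tested alone in that model, 16861 genes above the background line on at least 3 arrays gave 244 higher and 507 lower. Those are larger shares than over all genes, and most genes of the programs listed below lay above the line. The shares over all genes given beside list counts are therefore a low mark for comparison. All 623 moved the same way in the 3 pairs, which selection in the model with the block favours, so this is no separate support. In 387 of the 623 the 3 values of each group did not overlap, and 223 changed by more than 2-fold (59 higher and 164 lower). Over all genes, 9.65% had groups that did not overlap, and the median difference was 0.01. The gene lists below were chosen with earlier results of these data known. Some genes are in more than 1 list, as the 650 entries on the array are 622 genes. Counts per list therefore describe the lists and are not separate support. Same-numbered arrays deviated together, so below "rose" and "fell" refer to the model with the block. In that model ± is the standard error of a difference with 3 arrays a group. The adjusted p without the block follows where a gene is described in full. The spread behind ± was pooled over the arrays of all groups, not taken from the compared arrays alone. Deviations from group means correlated at 0.71, 0.21 and 0.42 between same-numbered arrays of N4 plus corticosteroid and Y3. Between N4 and N4 plus corticosteroid they correlated at 0.80, 0.65 and 0.81. The ± values and the calls may therefore overstate the precision of the main comparison. With the arrays of N4 plus corticosteroid called the treated arrays, the count with the block was 246, 211 and 192 without treated replicates 1, 2 and 3, 267, 267 and 104 without Y3 replicates 1, 2 and 3, and 392 without N4 replicate 2. Only 1 gene, Cish, passed in a model with the block on the 6 arrays alone, at an adjusted p of 0.0371.

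The same models were read for the other arrays that frame this comparison. N4 without steroid against Y3 gave 12 genes (0.0304%; 6 higher and 6 lower, or 7 and 4 after quantile scaling) without the block and 1160 (2.94%) with it, and shares the Y3 arrays with the main comparison. N4 plus corticosteroid against N4 gave 0 genes without the block, with 749 at an unadjusted p under 0.05, and 1 gene (0.00253%) with it, and shares the treated arrays. The count of 1160 was 428, 243 and 502 without N4 replicates 1, 2 and 3 and 516, 576 and 294 without Y3 replicates 1, 2 and 3. The median absolute difference over all genes was 0.10 for N4 plus corticosteroid against Y3, 0.11 for N4 against Y3 and 0.07 for N4 plus corticosteroid against N4. Because arrays are shared, the values of these comparisons are given side by side below and not tested against each other.

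**Figure D1:**
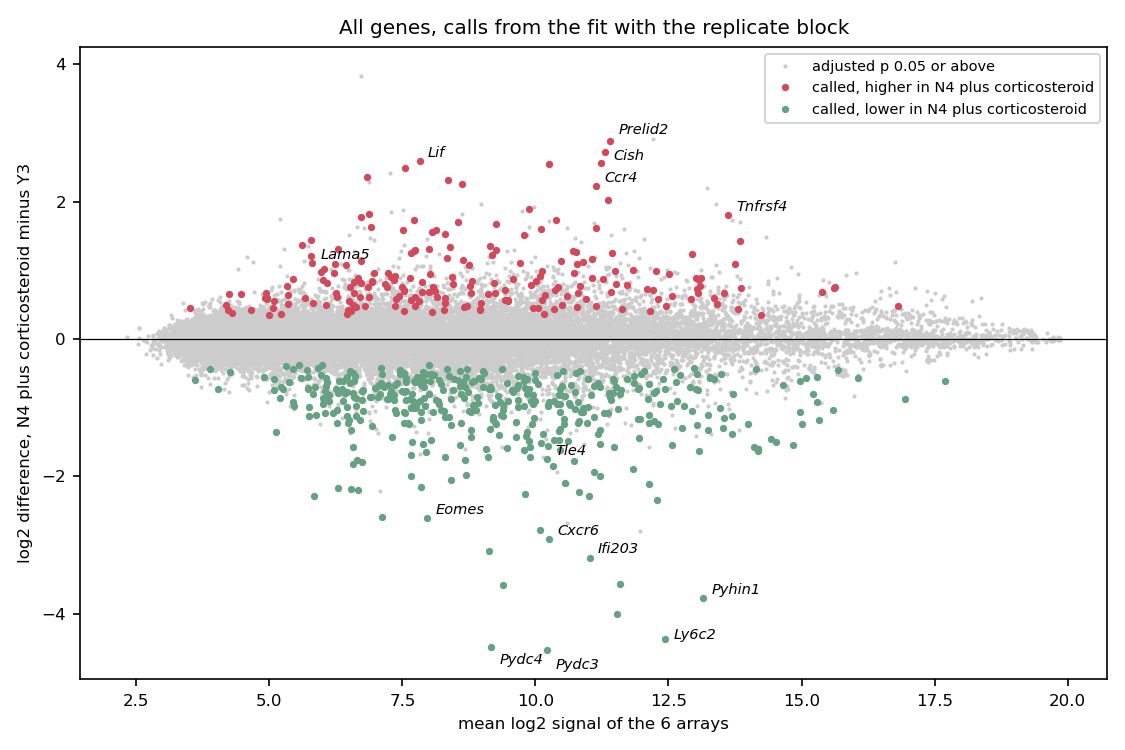
Mean log2 signal of the 6 arrays (horizontal) against the log2 difference, N4 plus corticosteroid minus Y3 (vertical), 1 point per gene. The 204 genes called higher with the replicate block are red, the 419 called lower are green and the rest are grey, and the named points at the bottom include Ly6c2 and Pydc3, more than 4 log2 units lower.

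The 3 genes that passed in both models came first. Ly6c2 encodes Ly6C, a surface protein that marks effector and memory CD8 T cells (cluster TC1500001730.mm.1 in the files). Its signal was 10.20, 10.90 and 9.65 with N4 plus corticosteroid and 13.89, 15.12 and 14.84 with Y3. Each treated array lay more than 3 units below its Y3 partner, and the groups were far apart. The difference was -4.36 ± 0.36, a 20.6-fold lower signal (adjusted p = 0.0464 without and 0.00209 with the block). N4 without steroid lay near the treated arrays, at 10.33, 11.38 and 9.72. The close relative Ly6c1 differed by -1.24 ± 0.29 (adjusted p = 0.0876 with the block), and probes for these near-identical genes may share signal. Tle4, a transcriptional corepressor, stood at 9.09, 9.51 and 9.41 against 10.84, 11.24 and 11.17. All treated arrays were lower, by -1.75 ± 0.10 (adjusted p = 0.0464 and 0.000744), and N4 against Y3 gave -1.82. Lama5, a laminin chain of the basement membrane, measured 6.35, 6.53 and 6.19 against 5.30, 5.35 and 5.13. No Y3 array rose above the background line, so the 1.10 ± 0.08 difference is given as at least 1.41-fold higher (adjusted p = 0.0464 and 0.00134). With the block the calls of all 3 genes held whichever of the 12 arrays was left out. Without the block 2 of them were kept without N4 replicate 1 and 2 without Y3 replicate 1, and none was kept under the other 10 omissions.

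Interferon-induced genes were lower with N4 plus corticosteroid than with Y3. Of the 36 interferon-stimulated genes in the list, which respond to type I interferon through factors that include STAT2 and IRF9, 19 fell and none rose, against 1.06% of all genes called lower. All 36 differences were below 0, as were 46.7% of differences over all genes, and the median was -1.004 (-0.94, -0.54 and -1.65 in the 3 pairs). Of the 10 PYHIN genes, a family of nuclear proteins and cytosolic DNA sensors, 6 fell, with a list median of -1.69. Of the 8 Schlafen genes, which include regulators of T cell quiescence, 3 fell, with a median of -0.72. Of the 15 interferon gamma-induced GTPases, which guard against intracellular pathogens, 5 fell, with a median of -0.98 (-0.56 without treated replicate 1 and -1.51 without Y3 replicate 1). N4 without steroid against Y3 gave medians of -1.12, -1.76, -0.91 and -1.22 for the same 4 lists, and N4 plus corticosteroid against N4 gave 0.09, 0.03, 0.10 and 0.41.

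The promoters of 5 members that fell are shown because each holds the interferon-stimulated response element, the motif through which type I interferon acts. The windows are the 250 bases before the RefSeq gene start in GRCm38.p6, 5′ to 3′ on the gene's strand. Where a gene had several promoters, the window with the most matches to the motif was taken. Capitals mark matches to the motif searched, GAAA followed by any 2 bases and then GAAA, on either strand.
Pydc3, chr1:173673415-173673664, plus strand: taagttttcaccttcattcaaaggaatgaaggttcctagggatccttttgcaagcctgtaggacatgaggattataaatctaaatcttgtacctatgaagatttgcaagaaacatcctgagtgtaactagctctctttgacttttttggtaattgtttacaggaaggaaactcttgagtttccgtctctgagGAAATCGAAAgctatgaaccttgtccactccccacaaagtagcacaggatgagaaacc
Pydc4, chr1:173599273-173599522, minus strand: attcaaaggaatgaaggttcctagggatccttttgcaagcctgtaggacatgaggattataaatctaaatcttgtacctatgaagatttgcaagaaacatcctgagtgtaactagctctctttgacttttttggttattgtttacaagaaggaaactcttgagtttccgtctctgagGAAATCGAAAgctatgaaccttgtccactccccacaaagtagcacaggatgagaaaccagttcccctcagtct
Ifi203, chr1:173942493-173942742, minus strand: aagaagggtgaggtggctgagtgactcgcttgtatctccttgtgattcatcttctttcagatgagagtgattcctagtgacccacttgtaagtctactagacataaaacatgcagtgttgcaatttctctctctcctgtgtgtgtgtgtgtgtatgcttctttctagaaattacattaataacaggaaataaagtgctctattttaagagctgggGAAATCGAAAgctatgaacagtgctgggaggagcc
Ifit3, chr19:34583279-34583528, plus strand: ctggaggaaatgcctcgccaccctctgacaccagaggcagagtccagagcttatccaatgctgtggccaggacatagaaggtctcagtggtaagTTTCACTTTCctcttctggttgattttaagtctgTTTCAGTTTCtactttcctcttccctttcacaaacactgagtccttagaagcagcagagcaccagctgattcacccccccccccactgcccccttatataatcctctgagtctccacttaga
Isg15, chr4:156200819-156201068, minus strand: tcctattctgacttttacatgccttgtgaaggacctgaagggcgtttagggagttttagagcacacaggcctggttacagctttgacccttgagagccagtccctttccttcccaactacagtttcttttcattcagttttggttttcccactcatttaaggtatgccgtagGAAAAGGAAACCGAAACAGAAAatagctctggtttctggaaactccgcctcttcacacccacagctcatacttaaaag
Counted from the gene start, the match began at -58 in Pydc3, -73 in Pydc4 and -35 in Ifi203, and Isg15 held 3 overlapping matches. RefSeq lists Pydc3 as Ifi208 and Pydc4 as Ifi213. Of 32851 promoters of this length, 2.98% held a match, against 35.5% of the 31 promoters found for 26 of the interferon-stimulated genes. The shares were 63.6% of 11 PYHIN promoters, 50% of 8 Schlafen promoters and 77.8% of 9 GTPase promoters. The gamma-activated site, through which interferon gamma acts, searched as TTC and GAA with any 3 bases between them, was held by 7.02% of all promoters, 16.1% of the interferon-stimulated set and 44.4% of the GTPase set. These matches describe letters in a window and do not show binding. The Pydc3 and Pydc4 windows are near copies of each other, and the signals of such closely related genes may not be separable on the array.

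Pydc3 had the lowest difference of all genes named. Its signal was 7.12, 10.18 and 6.56 with N4 plus corticosteroid and 11.58, 13.21 and 12.68 with Y3, which gave -4.54 ± 0.50 (adjusted p = 0.291 without and 0.00606 with the block). Replicate 2 was the highest of its group on both sides, and the groups did not overlap. Pydc4 followed at 6.12, 8.89 and 5.78 against 10.50, 12.09 and 11.64 (-4.49 ± 0.43, adjusted p = 0.256 and 0.00347). Pyhin1, which encodes a nuclear PYHIN protein, lay well above the background line in both groups, at 10.77, 12.86 and 10.17 against 14.53, 15.38 and 15.20. It fell by 3.77 ± 0.42 (adjusted p = 0.173 and 0.00606). Ifi203 measured 7.90, 10.45 and 9.92 against 11.50, 12.98 and 13.34, a difference of -3.18 ± 0.24 (adjusted p = 0.458 and 0.00134). Its groups were apart although the treated arrays spanned more than 2 units. Mndal, a further member, fell by 2.11 ± 0.20. BC094916, for which the files give no role, fell by 3.56 ± 0.42. N4 without steroid against Y3 gave -4.80 for Pydc3, -4.64 for Pydc4, -3.67 for Pyhin1 and -3.63 for Ifi203. N4 plus corticosteroid against N4 gave 0.27, 0.16, -0.10 and 0.45 for these 4 genes, none of them past the threshold.

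Among the classical interferon-stimulated genes, Zbp1, a sensor of left-handed nucleic acid that can start cell death, stood at 8.76, 10.35 and 9.39 against 10.45, 12.18 and 12.15. It fell by 2.09 ± 0.21 (adjusted p = 0.538 and 0.00403), and only replicate 2 of the treated group came near the lowest Y3 array. Irf7, the factor that amplifies type I interferon, fell by 1.72 ± 0.33, and Oas1a, of the enzymes that activate RNase L, fell by 1.33 ± 0.19. Rnf213, an antimicrobial ubiquitin ligase, fell by 2.29 ± 0.46. Ifit3 and Isg15, which rank among the most inducible genes of this program, were close to the background line. Ifit3 was 5.76, 5.67 and 5.60 against 6.49, 6.54 and 6.71 (-0.90 ± 0.12, adjusted p = 0.0614 and 0.00961), and Isg15 was 5.67, 5.89 and 5.77 against 6.21, 6.47 and 6.51 (-0.62 ± 0.09, adjusted p with the block = 0.0112). Apol7e (-3.09 ± 0.30), Apol7b (-2.60 ± 0.30) and Ifit1bl1 (-2.19 ± 0.33) fell too, and the Apol7 pair is another family whose members are alike in sequence. The calls of Pydc3, Pydc4, Pyhin1, Ifi203, Mndal, BC094916, Zbp1, Apol7b and Apol7e held whichever array was left out. Those of Irf7 and Rnf213 held in 3 and 1 of the 12 omissions, Oas1a was lost without Y3 replicate 3, and Ifit1bl1 without treated replicate 2 or 3 or Y3 replicate 3.

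The count of 19 interferon-stimulated genes called lower ranged from 1 to 18 when an array was left out. It was 6 and 2 without replicates 1 and 3 of N4 plus corticosteroid, 12 without its replicate 2, and 4, 12 and 1 without replicates 1, 2 and 3 of Y3. Isg15 and Ifit3 were not called without Y3 replicate 3 or treated replicate 2 or 3. Without the block, the list median stayed between -1.29 and -0.89 when 1 of the 6 compared arrays was left out. In that model the omission of any other array cannot change the difference. The other list medians given for an omission also come from the model without the block. The PYHIN count with the block stayed between 5 and 6 over all 12 omissions.

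Slfn1 and Slfn2 with N4 plus corticosteroid lay between N4 and Y3. Slfn2, required for quiescence of T cells in mice, measured 10.02, 10.91 and 10.71 with N4 plus corticosteroid against 11.19, 12.21 and 12.23 with Y3. The groups did not overlap and the difference was -1.33 ± 0.13 (adjusted p with the block = 0.00361), while N4 without steroid against Y3 gave -2.13. Slfn1 fell by 2.23 ± 0.33 against Y3, where N4 without steroid against Y3 gave -3.24. The rise from N4 to N4 plus corticosteroid, 0.80 for Slfn2 and 1.02 for Slfn1, did not pass the test. Slfn8 fell by 1.84 ± 0.34. Without replicate 1 or replicate 3 of the treated group, 1 Schlafen gene was called, Slfn2, whose call held under every omission.

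The GTPases overlapped between groups more than the other interferon lists. Gbp9 had signals of 10.49, 12.93 and 11.98 against 12.14, 13.85 and 14.03, so treated replicate 2 exceeded Y3 replicate 1. Each pair was nevertheless lower, by -1.54 ± 0.17 in the mean (adjusted p = 0.837 and 0.00606). Gbp10, Gbp8, Gbp4 and Gbp11 fell by 1.58 ± 0.21, 1.03 ± 0.15, 1.10 ± 0.19 and 1.08 ± 0.14, and these neighbouring paralogs may share probe signal. Only 1 of the 15 GTPases had groups that did not overlap, against 9.65% of all genes, so by this measure the list did not stand out. The count called was 2 without treated replicate 1 or 3 and 1 without Y3 replicate 1 or 3, with Gbp9 called throughout. Of 17 class I presentation genes all had differences below 0, with a median of -0.41 (-0.09 without treated replicate 1 and -0.61 without Y3 replicate 1). Against 1.06% of all genes, 1 of the 17 fell: Erap1, the peptide-trimming aminopeptidase of the endoplasmic reticulum (-0.72 ± 0.13). That call was lost in 7 of the 12 omissions, among them treated replicates 2 and 3 and Y3 replicates 2 and 3. H2-K1 (-0.32 ± 0.09) and B2m (-0.14 ± 0.07) did not pass.

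The interferon ligands and receptors gave a mixed reading. Ifnar1, a chain of the type I interferon receptor, had signals of 10.96, 11.73 and 12.03 against 12.07, 12.85 and 13.13. It fell by 1.11 ± 0.12 (adjusted p = 0.565 and 0.00606), in every pair and whichever array was left out. Ifng, the type II interferon that activated CD8 T cells secrete, measured 12.93, 5.47 and 6.78 against 9.05, 6.004 and 8.94. Replicate 1 was the highest on both sides, the groups overlapped, and the difference of 0.40 ± 1.18 did not pass (adjusted p with the block = 0.961).

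**Figure D2:**
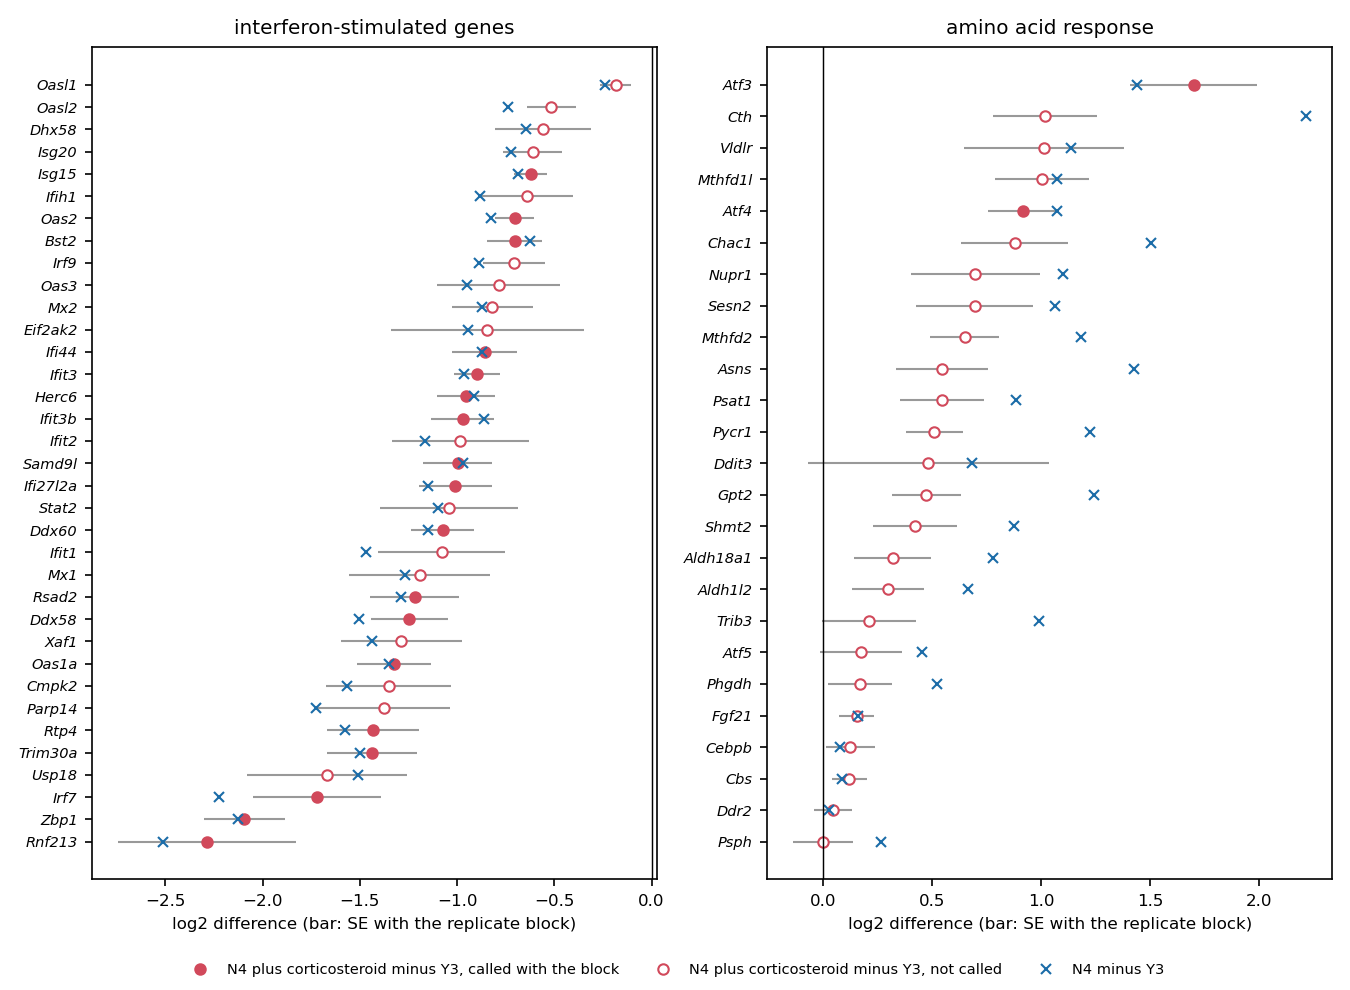
Log2 difference, N4 plus corticosteroid minus Y3, of interferon-stimulated genes and amino acid response genes, with the standard error from the model with the replicate block; filled points passed the test and crosses give N4 minus Y3. The interferon-stimulated genes drawn all lie below 0 and 24 of 25 amino acid response genes lie above it.

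Surface receptors that guide T cells through tissue differed in both directions. Of 18 chemokine and other trafficking receptors, S1pr1 among them, 2 rose and 5 fell, against 0.517% and 1.06% of all genes. Cxcr6, which holds T cells in liver and other tissues through the ligand CXCL16, measured 9.04, 9.17 and 8.16 against 11.97, 11.56 and 11.61. The treated arrays all lay more than 2 units below the Y3 arrays, a difference of -2.92 ± 0.24 (adjusted p = 0.0532 and 0.00209), and N4 against Y3 gave -2.39. Gpr15, a homing receptor of the large intestine, stood at 5.65, 5.70 and 5.36 against 8.19, 7.94 and 7.19 (-2.20 ± 0.29, adjusted p = 0.103 and 0.00961). Gpr15 was close to the background line on the treated arrays and clear of it with Y3. Cxcr3, a receptor of interferon-induced chemokines, fell by 1.19 ± 0.19, and S1pr1, which lets T cells leave lymph nodes, fell by 1.25 ± 0.24. Ccr4, known from T cells that home to skin, went the other way at 12.94, 12.25 and 11.59 against 10.14, 10.26 and 9.69 (2.23 ± 0.24, adjusted p = 0.0721 and 0.00498). Ccr8 rose by 1.25 ± 0.19. The lymph node homing receptor Ccr7 differed by 0.14 ± 0.54. Without any 1 array of the compared groups the receptors called were 1 higher and 3 or 4 lower, with Cxcr6, Gpr15 and Ccr4 called throughout, Cxcr3 and Ccr8 called under none of these 6 omissions, and S1pr1 called in 3 of all 12.

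Some regulators tied to memory and stem-like CD8 T cells were lower with N4 plus corticosteroid. Of 20 such genes, 5 fell and none rose, against 1.06% and 0.517% of all genes. In all, 16 of the 20 differences lay below 0 and 4 above, with a median of -0.69 (-0.95, -0.87 and -0.40 in the pairs) and -0.49 for N4 against Y3. The median ran from -1.05 without treated replicate 3 to -0.46 without treated replicate 1. Eomes, a T-box factor of memory and effector cells, measured 7.58, 6.48 and 5.93 against 9.03, 9.27 and 9.50. No treated array reached the Y3 range, and the difference was -2.60 ± 0.37 (adjusted p = 0.103 and 0.0134). Cd27, a costimulatory receptor of naive and memory cells, was 13.57, 14.94 and 14.68 against 15.03, 16.07 and 15.80 (-1.24 ± 0.16, adjusted p = 0.57 and 0.00961). Lef1, a partner of TCF1 in maintaining stemness, was 11.94, 13.28 and 13.69 against 13.29, 14.52 and 14.54 (-1.15 ± 0.21, adjusted p with the block = 0.0371). Replicate 1 was the lowest on both sides for both genes. Tcf7, which encodes TCF1, had a larger but more variable difference, at 8.002, 10.63 and 13.09 against 11.21, 14.34 and 14.56 (-2.79 ± 0.61, adjusted p with the block = 0.0648). Il7r, the survival receptor for interleukin 7, differed by 0.54 ± 0.20, which did not pass. The count of 5 was 3, 2 and 3 without replicates 1, 2 and 3 of the treated group, 3, 2 and 1 without those of Y3, 3 without N4 replicate 1 or 2 and 3 without replicate 2 of Y3 plus corticosteroid, and Eomes was not called without replicate 2 or 3 of either compared group. Cd27 lost its call without Y3 replicate 3, and Lef1 kept its call in 3 of the 12 omissions.

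Several single genes of cytokine signalling were higher with N4 plus corticosteroid. Cish, a feedback inhibitor induced by STAT5 downstream of interleukin 2, had signals of 13.16, 11.99 and 12.85 against 10.38, 9.15 and 10.30. Replicate 2 was the lowest on both sides, the groups were apart, and Cish rose by 2.72 ± 0.14, a 6.61-fold higher signal (adjusted p = 0.0922 and 0.000389). Lif, a cytokine of the interleukin 6 family, rose by 2.59 ± 0.29, from 6.62, 6.09 and 6.88 with Y3 to 10.08, 8.59 and 8.67 (adjusted p = 0.105 and 0.00606). Osm, of the same family, rose by 1.28 ± 0.13, from 7.59, 6.77 and 6.89 to 9.15, 8.13 and 7.82 (adjusted p = 0.606 and 0.00381). For each of these genes the steroid-free N4 arrays lay near the treated ones, with N4 against Y3 at 2.56 for Cish, 2.83 for Lif and 1.71 for Osm. Il24 was listed at 10.51, 9.50 and 5.91 against 4.86, 4.87 and 4.70, where no Y3 array passed the background line, and its at least 6.83-fold higher signal missed the threshold (adjusted p with the block = 0.0662). Of 25 cytokines 2 rose, Lif and Osm, and of 9 feedback genes 3 rose, Cish, Osm and Bcl2l1, against 0.517% of all genes called higher. The calls of Cish, Lif and Osm held under every omission, whereas that of Bcl2l1, a survival gene of the Bcl2 family, was lost without any 1 of the 6 compared arrays and held in 3 of the 12 omissions. Socs1 (0.64 ± 0.15) and Pim1 (0.77 ± 0.18), further STAT5 targets, did not pass.

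The survival and costimulatory genes that rose included several of the tumour necrosis factor receptor family. Bcl2, which blocks the mitochondrial route to cell death, was 12.96, 12.22 and 11.95 against 11.69, 9.64 and 9.71 (2.03 ± 0.24, adjusted p = 0.509 and 0.00727). All treated arrays exceeded all Y3 arrays, although Y3 replicate 1 lay within 0.3 of the lowest treated array. Of 20 survival and death genes 2 rose, against 0.517% of all genes called higher. Yet 14 of the 20 lay below 0 and 6 above, with a median of -0.16. Tnfrsf4, which encodes OX40, was 14.68, 14.001 and 14.89 against 12.86, 12.83 and 12.48 (1.80 ± 0.26, adjusted p = 0.18 and 0.0132). Tnfrsf9, which encodes 4-1BB, rose by 1.24 ± 0.19, and Tnfrsf18, which encodes GITR, by 1.43 ± 0.24. Against these, Cd27 and Tnfrsf14 (-0.68 ± 0.11), the herpesvirus entry mediator, fell. In all, 3 of 13 costimulators rose and 2 fell, against 0.517% and 1.06% of all genes. These counts moved to 2 and 1, 1 and 1, and 0 and 1 without treated replicates 1, 2 and 3, and to 1 and 1, 2 and 1, and 0 and 0 without Y3 replicates 1, 2 and 3. Tnfrsf4 was not called without treated replicate 3 or Y3 replicate 1 or 3. Bcl2 lost its call without Y3 replicate 3, Tnfrsf9 without replicate 2 or 3 of either group, and Tnfrsf18 without any 1 treated array or Y3 replicate 1 or 3. The proapoptotic Bcl2l11 differed by -1.65 ± 0.54, which did not pass.

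Batf3, a basic leucine zipper factor that supports CD8 T cell survival, was the member of the receptor-strength list that rose. Its signal was 10.24, 8.77 and 9.52 against 7.59, 6.84 and 7.15, with replicate 1 highest on both sides, no overlap and a difference of 2.32 ± 0.20 (adjusted p = 0.141 and 0.00286). N4 against Y3 gave 2.11. In the same list of 29 factors known to follow receptor signal strength, Ikzf2 and Ikzf3, zinc finger factors of the Ikaros family, fell by 1.31 ± 0.21 and 1.04 ± 0.11. Ikzf2 differed by -0.47 between N4 and Y3 and by -0.84 between N4 plus corticosteroid and N4. Ikzf2 was not called without replicate 1 or 2 of either group, whereas the calls of Batf3 and Ikzf3 held under every omission. The immediate early factors Nr4a1 (-1.24 ± 0.60) and Egr2 (-0.30) did not pass at this time point.

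The other genes named by size on the higher side had fewer known links to priming. Prelid2 measured 12.57, 12.94 and 13.02 against 10.85, 9.79 and 9.23, a rise of 2.89 ± 0.32 with no overlap (adjusted p = 0.0614 and 0.00606). Rnf19b, a ubiquitin ligase of cytotoxic lymphocytes, measured 12.44, 11.79 and 11.62 against 10.47, 10.33 and 10.20, a rise of 1.62 ± 0.16 (adjusted p = 0.105 and 0.00391). Both calls held whichever array was left out. Tgm2, the tissue transglutaminase, rose by 2.35 ± 0.40 from a level at which 1 of 3 Y3 arrays passed the background line, and Maats1, a gene of motile cilia, rose by 2.49 ± 0.35. Without any 1 of the 6 compared arrays Tgm2 was not called, and Maats1 was not called without replicate 1 or 3 of either group. Hemk1, a methyltransferase of release factors, rose by 1.72 ± 0.26, and Ramp3, a partner protein of the calcitonin receptor family, rose by 1.63 ± 0.24. Hemk1 was not called without any 1 treated array or Y3 replicate 1 or 2, nor Ramp3 without treated replicate 2 or 3 or Y3 replicate 1 or 3. Cpa3, a protease best known from mast cells, fell from 6.18, 7.33 and 7.41 to 4.37, 5.31 and 4.39. No treated array passed the background line, so its signal is given as at least 2.43-fold lower (adjusted p = 0.156 and 0.00606).

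**Figure D3:**
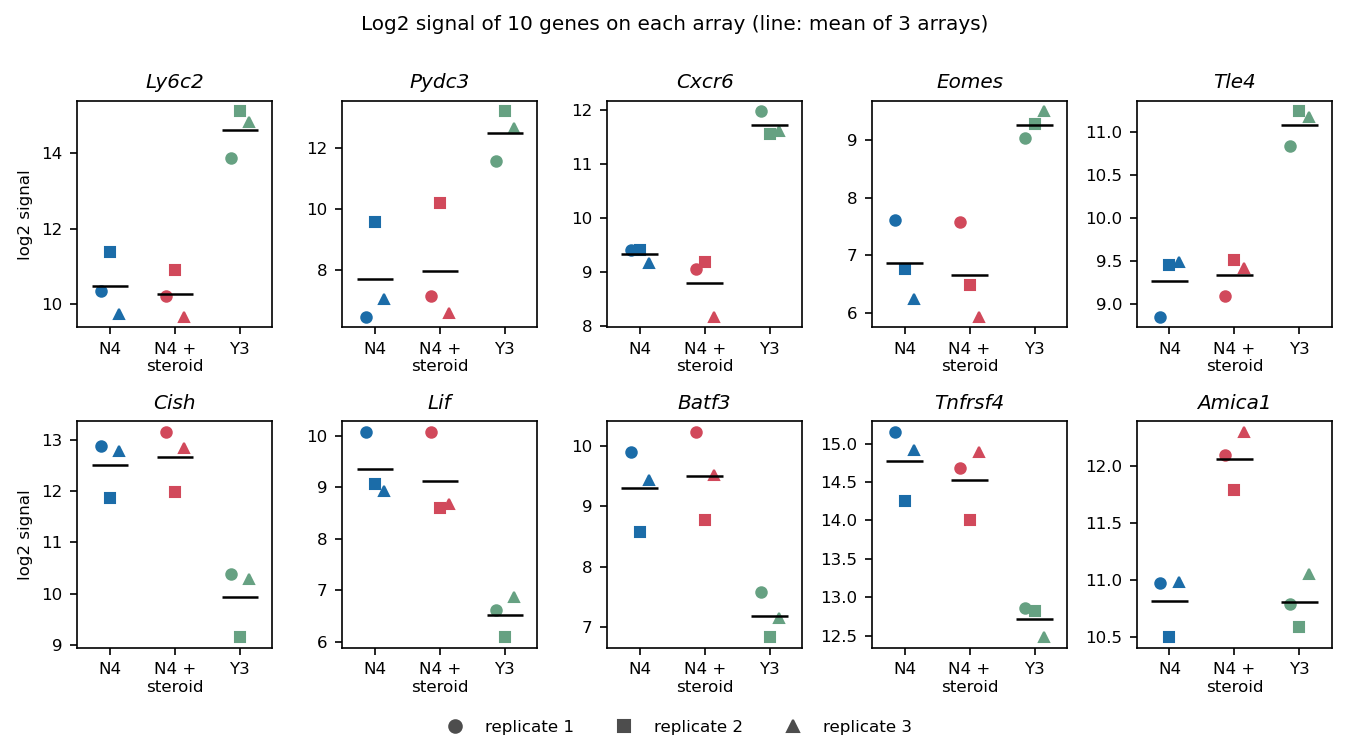
Log2 signal of 10 genes on each array of N4, N4 plus corticosteroid and Y3 (marker shape gives the replicate number, the line the group mean). Ly6c2, Pydc3, Cxcr6, Eomes and Tle4 are lower and Cish, Lif, Batf3 and Tnfrsf4 higher on N4 and N4 plus corticosteroid arrays than on Y3 arrays, while Amica1 is higher on the N4 plus corticosteroid arrays than on both other groups.

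Metabolic lists had medians above 0, which were smaller than those of N4 without steroid against Y3. The amino acid response is the program by which ATF4 raises amino acid synthesis and uptake genes. Of its 25 genes 24 lay above 0, as did 53.3% of all genes, with a median of 0.48 (0.36, 0.44 and 0.56 in the pairs, and 0.32 without treated replicate 1). Of the 25, 2 rose, Atf4 and Atf3, against 0.517% of all genes. The median for N4 against Y3 was 0.99 and that for N4 plus corticosteroid against N4 was -0.35, and the steps were not tested against each other. Atf4 measured 10.83, 9.97 and 10.81 against 9.96, 9.38 and 9.52. The lowest treated array lay 0.01 above the highest Y3 array, and the difference was 0.92 ± 0.16 (adjusted p = 0.419 and 0.0308). Atf3, a stress-induced partner of ATF4, measured 10.13, 8.55 and 9.49 against 7.58, 7.63 and 7.88 (1.70 ± 0.29, adjusted p = 0.263 and 0.0265). The Atf3 window, chosen in the same way as those above, held the sequence that ATF4 and its partners bind, TGATGNAA. Capitals mark it in the 250 bases before the gene start.
Atf3, chr1:191183334-191183583, minus strand: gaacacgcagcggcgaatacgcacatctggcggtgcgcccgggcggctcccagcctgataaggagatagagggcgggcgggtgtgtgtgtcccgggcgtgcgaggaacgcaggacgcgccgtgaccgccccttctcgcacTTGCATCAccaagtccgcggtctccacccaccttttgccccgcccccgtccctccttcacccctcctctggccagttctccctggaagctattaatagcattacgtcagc
The match began at -110 from the gene start, on the strand opposite to the gene. It was present in 3.45% of all promoters, in 26.9% of 26 promoters of the amino acid response genes and in 16.7% of 12 promoters of the tRNA synthetases.

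The synthesis enzymes themselves did not pass. Asns, asparagine synthetase, was 12.15, 11.19 and 12.20 against 11.73, 10.91 and 11.27 (0.55 ± 0.21, adjusted p with the block = 0.308), where N4 against Y3 gave 1.42. Cth, which makes cysteine, differed by 1.02 ± 0.24 where N4 against Y3 gave 2.21. Trib3 and Chac1, further ATF4 targets, differed by 0.21 ± 0.22 and 0.88 ± 0.25. Among 19 aminoacyl-tRNA synthetases, which charge tRNAs for translation, 17 lay above 0 with a median of 0.29 (0.17 without treated replicate 1 and 0.55 without Y3 replicate 1), and Dars (0.75 ± 0.11) and Eprs (0.67 ± 0.12) rose. Among 21 glycolysis genes 19 lay above 0 with a median of 0.37 (0.14, 0.18 and 0.96 in the pairs, and 0.22 without Y3 replicate 3), and Hk1 (0.65 ± 0.10) and Pfkm (0.84 ± 0.16) rose. Over all genes, 0.517% were called higher. N4 against Y3 gave medians of 0.62 for the synthetases and 0.55 for glycolysis. The calls turned on single arrays. No amino acid response gene was called without treated replicate 1 or 3 or without any 1 Y3 array, and 1 was called without N4 replicate 2. No synthetase was called without treated replicate 2 or 3 or Y3 replicate 1 or 3, and 1 was called without N4 replicate 2, treated replicate 1, Y3 replicate 2 or replicate 2 of Y3 plus corticosteroid. No glycolysis gene was called without treated replicate 2 or 3 or any 1 Y3 array, and 1 was called without any 1 N4 array or without replicate 2 or 3 of Y3 plus corticosteroid.

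Growth genes varied widely between arrays. Myc, the growth factor-induced transcription factor, was 14.92, 13.84 and 14.15 against 13.39, 12.74 and 13.48 (1.10 ± 0.19, adjusted p = 0.516 and 0.0258), and its call was lost without treated replicate 1 or 2 or any 1 Y3 array. The remaining 26 genes of the Myc and ribosome biogenesis list did not pass, and the list median of 0.17 had pair values of 0.72, 0.37 and -0.51 and ran from -0.19 without treated replicate 1 to 0.48 without treated replicate 3. Lonp1, a protease of the mitochondrial matrix, and Pcx, the pyruvate carboxylase that refills the citric acid cycle, rose by 1.74 ± 0.24 and 1.81 ± 0.25. Elovl6, a fatty acid elongase, rose by 0.73 ± 0.13. Lonp1 was not called without replicate 2 or 3 of either group, Pcx without treated replicate 1 or 2 or Y3 replicate 2, and Elovl6 without treated replicate 1 or 3, any 1 Y3 array or N4 replicate 1. Of 28 cell cycle genes 27 lay above 0 with a median of 0.58, yet the pair medians were 0.25, 1.15 and 0.30 and none passed with the block or without it, while 2 passed with the block without replicate 2 of Y3 plus corticosteroid. Mki67, a marker of dividing cells, was 16.36, 16.01 and 15.40 against 16.46, 14.79 and 14.05, so that Y3 replicate 1 was as high as the treated arrays. The cell cycle median ranged from 0.13 without treated replicate 1 to 1.24 without Y3 replicate 1. Cholesterol synthesis gave a median of 0.07, with 0.28, 0.76 and -0.80 in the pairs.

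Genes known to answer to glucocorticoids did not rise as a group against Y3, a comparison in which the ligand differs too. Of 26 such genes 16 lay above 0 and 10 below, with a median of 0.07 (-0.23 without treated replicate 3), and 5 fell while none rose, against 1.06% and 0.517% of all genes. The 5 were Tle4, Btg2, Tgfbr2, Sesn1 and Klf13. The list median was 0.05 for N4 against Y3 and 0.03 for N4 plus corticosteroid against N4. Tle4 differed by -1.82 between N4 and Y3 and by 0.07 between N4 plus corticosteroid and N4. Btg2, an antiproliferative gene, was 9.26, 9.70 and 9.98 against 10.95, 11.46 and 11.40, a clear gap of -1.62 ± 0.11 (adjusted p = 0.103 and 0.00132), and N4 without steroid against Y3 gave -1.83. Tgfbr2, a receptor chain for TGF-beta, fell by 1.07 ± 0.17, Sesn1, a stress-induced inhibitor of growth signalling, by 0.92 ± 0.14, and Klf13 by 0.85 ± 0.16. The best known targets lay above Y3 without passing. Tsc22d3, which encodes GILZ, was 7.60, 9.34 and 10.07 against 7.76, 8.52 and 8.41, so replicate 1 did not share the difference of 0.78 ± 0.30 (adjusted p with the block = 0.302). Klf9 was 7.79, 8.14 and 7.92 against 7.01, 7.40 and 7.62 (0.61 ± 0.19), and Fkbp5 was 8.78, 9.61 and 8.47 against 8.86, 8.16 and 8.26 (0.53 ± 0.29). N4 plus corticosteroid against N4 gave 1.07, 0.71 and 0.52 for Tsc22d3, Klf9 and Fkbp5, none past the threshold. The count of 5 was 3, 2 and 3 without treated replicates 1, 2 and 3 and 2 without any 1 Y3 array, with Tle4 and Btg2 called throughout.

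Amica1 set the treated group apart from both steroid-free groups. It encodes JAML, an adhesion molecule of activated T cells and other leukocytes. Its signal was 12.09, 11.79 and 12.30 with N4 plus corticosteroid, 10.79, 10.59 and 11.05 with Y3, and 10.97, 10.50 and 10.98 with N4. All treated arrays exceeded all arrays of N4 and of Y3. Y3 plus corticosteroid, the other group with steroid, was not part of this comparison. The difference from Y3 was 1.25 ± 0.10 (adjusted p = 0.141 and 0.00134), the difference from N4 was 1.24 (adjusted p = 0.014 with the block), and N4 against Y3 gave 0.01. It was the only gene called between N4 plus corticosteroid and N4, and that call was lost in 8 of the 12 omissions, those of N4 replicates 2 and 3, treated replicates 1 and 2, each Y3 array and replicate 2 of Y3 plus corticosteroid, and after median centring (adjusted p = 0.0517). The call against Y3 held whichever array was left out.

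Few effector and inhibitory receptor genes passed the test at this number of arrays. For the counts in this paragraph, the shares over all genes were 0.517% called higher and 1.06% called lower. Gzmb, the main granzyme of CD8 T cells, was 19.24, 18.62 and 17.65 against 18.96, 17.90 and 17.68 (0.33 ± 0.15, adjusted p with the block = 0.401). Gzma was 14.09, 17.23 and 9.65 against 11.44, 12.44 and 8.35, above Y3 in each pair by very different amounts (2.91 ± 0.88, adjusted p = 0.179). Gzma is also a member of the natural killer cell marker list above. Serpinb9, the inhibitor that shields killer cells from granzyme B, was 12.22, 12.99 and 11.31 against 10.22, 11.26 and 10.49 (1.51 ± 0.45, adjusted p = 0.171). Of 17 cytotoxic genes 1 passed, Ctsw, the cathepsin of killer cells, which fell by 1.06 ± 0.16. Pdcd1, which encodes PD-1, was 15.36, 14.21 and 14.86 against 14.996, 13.42 and 13.94 (0.69 ± 0.25, adjusted p = 0.276), and Havcr2, which encodes TIM-3, differed by -2.11 ± 0.85. Of 15 inhibitory receptors 1 passed, Cd101, which fell by 1.04 ± 0.13. Klrd1, the CD94 subunit of natural killer receptors, fell by 1.18 ± 0.16, and Nfil3, a leucine zipper factor, rose by 0.92 ± 0.15. Among 25 cytokine receptors Il2ra (0.74 ± 0.14) and Il12rb2 (0.48 ± 0.08) rose, and Il6st, the shared chain gp130, fell from 9.26, 11.55 and 11.76 to 7.63, 9.64 and 10.74 (-1.52 ± 0.24), with Ifnar1 and Tgfbr2 the other members that fell. The receptors called were none to 1 higher and 1 or 2 lower without any 1 of the 6 compared arrays, and Ifnar1 was called throughout. Ctsw was not called without treated replicate 1 or 3 or any 1 Y3 array, Cd101 without Y3 replicate 3, Klrd1 without Y3 replicate 1 or 3, and Nfil3 without treated replicate 2 or 3 or any 1 Y3 array.

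Across all 30 gene programs the values of N4 plus corticosteroid against Y3 can be set beside those of N4 against Y3, which share the Y3 arrays. The interferon and PYHIN medians were -1.004 and -1.69 with steroid and -1.12 and -1.76 without it. The medians of the amino acid response and the aminoacyl-tRNA synthetases were 0.48 and 0.29 with steroid and 0.99 and 0.62 without it. The memory list stood at -0.69 with steroid and -0.49 without it.

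**Figure D4:**
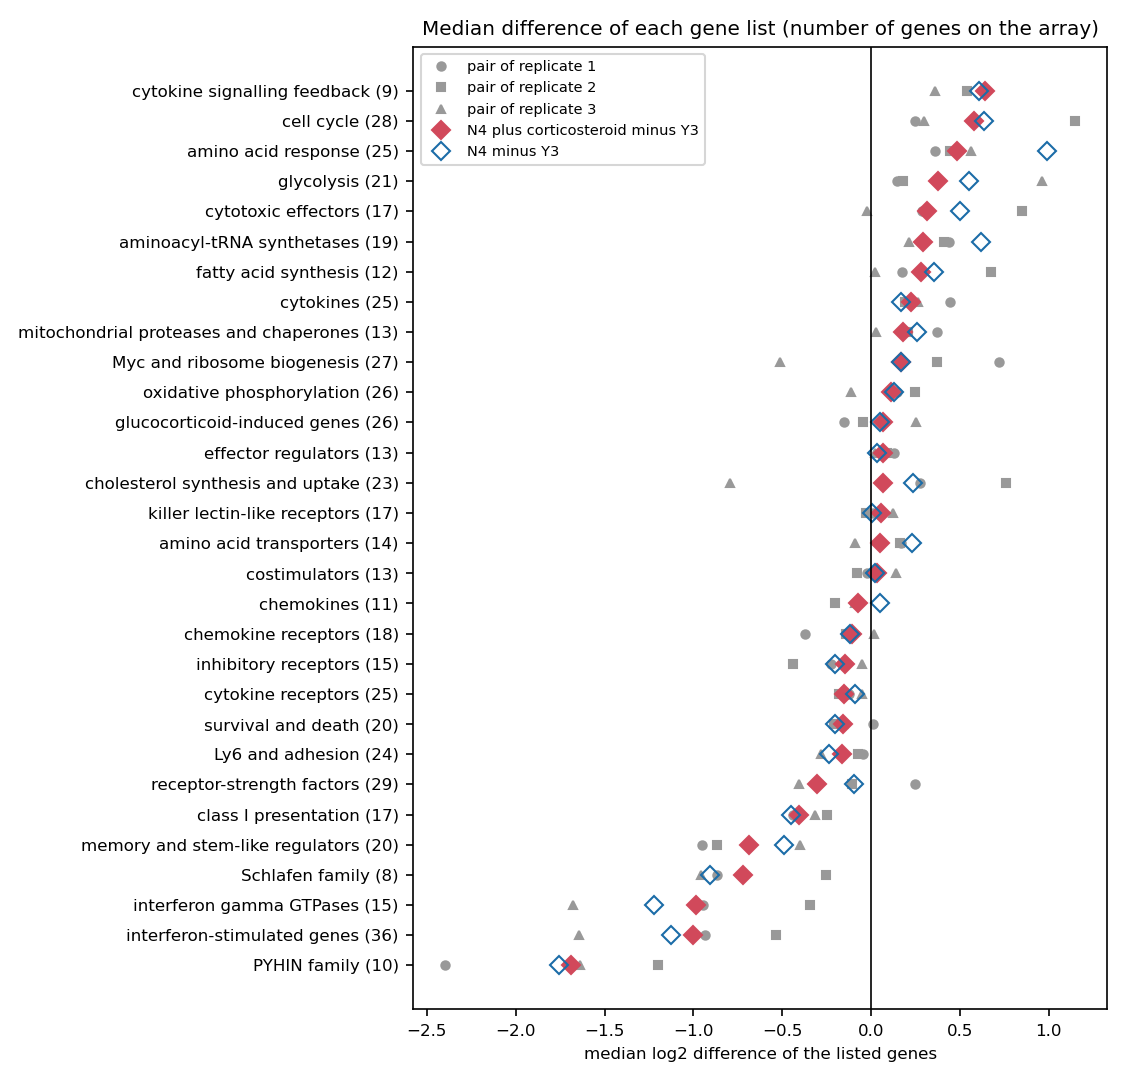
Median log2 difference of each of the 30 gene programs: N4 plus corticosteroid minus Y3 (filled), N4 minus Y3 (open) and the 3 pairs of N4 plus corticosteroid minus Y3 (grey). The PYHIN, interferon-stimulated and GTPase lists lie lowest at -1.69, -1.004 and -0.98, and cytokine signalling feedback (0.64) and cell cycle (0.58) lie highest.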

How the data were processed

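Total RNA of 12 samples, 3 in each of 4 groups by their labels, was read on Affymetrix mouse transcriptome arrays. Per the file headers, the authors summarised each transcript cluster by SST-RMA and deposited linear signal intensities (RMA, per the submitters' processing notes). The tests had been planned for log2 values, so log2 of the deposited intensities was taken, with no pseudocount or further scaling. The column codes N, NS, Y and YS were read as the peptide's initial, with S for corticosteroid, which no label spells out. The sources used here name no genome build for the array.

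Of 65956 transcript clusters, 40123 carried a symbol. Where a symbol had several clusters (462 symbols) the brightest was kept, leaving 39462 genes. All 12 arrays were fitted with a mean per group in limma 3.58.1 (R 4.3.3), two-sided, with Benjamini-Hochberg adjustment over all genes and a threshold of 0.05. A second fit added the replicate number as a block. Deviations from group means of same-numbered arrays correlated at 0.1136 to 0.8146 in all 18 pairs, so the numbers were taken to pair the samples. Not every array was closest to its own number: replicate 3 of N4 plus corticosteroid correlated at 0.4814 with Y3 replicate 2 and at 0.4232 with Y3 replicate 3, and replicate 3 of N4 at 0.4225 and 0.419. The pairing comes from these data, not from a statement in the labels. The fits were run on simulated data in which all groups shared the replicate effects, as the block assumes. That run cannot show whether the calls with the block hold in these data. Tables and figures used Python 3.11.15 and matplotlib 3.10.9.

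A group was below background where each array lay under its brightest background control (5.41 to 6.40 log2 units). At-least folds use the lowest level above background. Array number limits the precision.

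Members and the 37 gene lists (650 of 658 entries on the array) were chosen with earlier results of these data known. Named genes were the 15 highest and 15 lowest called genes whose groups did not overlap, in either fit, and list members that passed, had the largest differences or are well known. Other scalings, filters, variance models, features and left-out arrays were tried. Promoters came from RefSeq GRCm38.p6, and 31273 symbols matched its gene table. A few genes measured here are counted in the lists but not reported by name.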

Additional observations from a re-analysis of the deposited data

How the results depend on the processing

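The calls rest on the model. Between N4 plus corticosteroid and Y3, the 3 genes called without the block became 623 with the replicate number as a block, 0 on the 6 compared arrays alone (2094 at an unadjusted p under 0.05 in limma), 1 on those arrays with the block, 1 after median centring, 0 after quantile scaling, 42 with array weights, 6 with 16 added to the signal and 0 over all transcript clusters (4163 at an unadjusted p under 0.05). A filter on level gave 4 and limma's trend 3. Leaving out 1 array gave 0 to 5. The 623 became 497 with median centring, 608 with quantile scaling and 751 with the filter, and 104 to 666 when 1 array was left out: 392 without N4 replicate 2, 246, 211 and 192 without treated replicates 1 to 3, and 267, 267 and 104 without Y3 replicates 1 to 3. N4 against Y3 gave 12 genes, and 1160 with the block, 22 with the filter, 78 with array weights and 0 to 26 with 1 array left out (243 to 1341 with the block). N4 plus corticosteroid against N4 gave 0, and 1 with the block, which became 0 in 8 of the 12 omissions and after median centring in the same model (where 1448 genes had an unadjusted p under 0.05). In each case the cause was not tested, beyond fewer arrays or genes where these were removed.

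Over the genes named and their alternatives, values were set against the fit without the block, in which only 3 genes passed. There 3217 values kept their direction and side of the threshold, 1048 passed it newly, and 44, all of those 3 genes, no longer passed. In 11 the sign changed, all of genes that did not pass. These counts do not measure how firm the calls with the block are. Many of those calls were lost when 1 array was left out. Ifng was -1.36 with array weights, -1.87 to 1.86 with 1 array left out, and with the block -0.93 without treated replicate 1 and -0.60 without Y3 replicate 1. Ccr7 was -0.039 with array weights, -0.66 to 0.89 with 1 array left out, and with the block -0.39 and -0.29 without replicate 3 of the treated or the Y3 group. Gzmb ranged from -0.040 to 0.75 with 1 array left out. Of list medians, 1243 moved by less than the spread between pairs and 87 by more. Some alternatives leave every difference unchanged by construction, such as the block with all 12 arrays, or without it the omission of an N4 array. The 1243 therefore include medians that could not move. Genes near the background line are limited by their signal, and 18 of the 623 lay below it in both groups.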

Other observations

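Transcript clusters without a gene symbol were left out of the gene tests. When all 65956 clusters were fitted together with the replicate block, 912 were called, of which 329 carried no symbol. Of these 329, 14 were higher with N4 plus corticosteroid than with Y3 and 315 were lower, whereas the clusters with a symbol split into 178 higher and 405 lower. The share called was 1.27% without a symbol and 1.45% with one. The lower clusters were not only faint ones: 270 of the 315 lay above the background line on all 3 Y3 arrays, at a median level of 10.43 with Y3 and 9.30 with N4 plus corticosteroid. Their median difference was -1.03, against -0.03 over all clusters without a symbol. The files give these clusters no gene name, so none is described.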
